A study of Mus musculus with 6 samples.

Results

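The genes described here encode the proteins of the mitochondrial ribosome in mouse liver. They were taken as every row of the deposited count table whose gene symbol starts with Mrpl or Mrps followed by a number, with pseudogene names left out and a minimum of 10 reads summed over the libraries. The rule found 78 genes among 56847 in the table. Another 5 matching rows carried pseudogene names, and no other matching row fell under the minimum. Poly(A) RNA was sequenced from livers of mice on a normal diet (3 libraries) and of mice on CDAHFD (3 libraries), a high-fat chow without choline and with defined amino acids, used to induce steatohepatitis in rodents. The stated aim was to look at pathways of lipids and of the mitochondrion. No genotype, strain, sex, age or duration of the diet is given in the sources used here, nor do the labels tie libraries to individual mice. The p-values therefore cover the spread between samples, which may be technical.

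Mitochondria hold their own ribosomes, which translate the few messages of mitochondrial DNA. All of these messages encode core subunits of the respiratory chain and of ATP synthase. The ribosomal RNAs come from mitochondrial DNA, whereas every protein of the particle is encoded in the nucleus, made in the cytosol and imported. The large subunit (Mrpl genes, together with Mrps30 and Mrps18a) joins amino acids and lets the chain out at the inner membrane, and the small subunit (most Mrps genes) reads the message. Some of the proteins descend from bacterial ribosomal proteins and others are found only in mitochondrial ribosomes. Of the 78 genes, 51 belong to the large subunit (30 of bacterial type, 21 specific to mitochondria) and 26 to the small subunit (16 and 10). Mrps36 bears the name of the family, but its product is now assigned to the 2-oxoglutarate dehydrogenase complex.

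The libraries held 21986215 to 25628531 counted reads. All 78 members passed the filter on low counts, and the lowest count of any member in any library was 25. RNA of several other cell types moved with the diet. The 12 stellate cell and fibroblast markers summed to 307 to 373 CPM (counts relative to the TMM-scaled library size) on normal diet and to 1370 to 1610 CPM on CDAHFD, and all 12 passed as higher with TMM, the scaling used unless another is named. The 12 macrophage markers went from 399 to 542 CPM to 1770 to 1860 CPM, with 9 called higher. The 20 hepatocyte markers fell from 189000 to 211000 CPM to 140000 to 155000 CPM, with 16 called lower (10 lower and 2 higher with total counts). Cholangiocyte, lymphocyte and neutrophil lists were higher too, with 6 of 6, 7 of 10 and 5 of 5 tested markers called. The 6 proliferation genes were higher as well. Of all genes tested, 28.5% were called higher and 23.5% lower with TMM, and 44.0% and 8.07% with total counts. Of 10 endothelial markers 3 were higher with TMM, a share near that of all genes, and their median log2 change was 0.07. No marker was at 0 in all libraries. The part of these shifts in the values below was not tested. In whole liver, fewer cells of a type and less RNA per cell cannot be told apart.

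Transcripts of the mitochondrial ribosome were modestly lower on CDAHFD when libraries were scaled by TMM, a method that centres the bulk of genes. With edgeR's quasi-likelihood test, adjusted by the Benjamini-Hochberg method over 14215 genes with a threshold of 0.05, 27 of the 78 members fell, 2 rose and 49 did not pass. Over all genes tested, 23.5% were called lower and 28.5% higher. The median member had a log2 change of -0.19, against 0.01 for all genes. The quartiles of the members were -0.43 and -0.04, closer together than those of all genes at -0.36 and 0.64. A narrow spread was not particular to the members. The quartiles were -0.58 and -0.25 for nuclear respiratory chain genes and -0.1 and 0.13 for cytosolic ribosomal protein genes. Only 1 member, Mrpl47, changed by 2-fold or more, and the share of all genes that did so was not counted. In 36 members every CDAHFD library was below every normal diet library and in 3 every CDAHFD library was above, against 28.4% and 32.2% of all genes. The median error of a member's log2 change was 0.13.

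**Figure D1:**
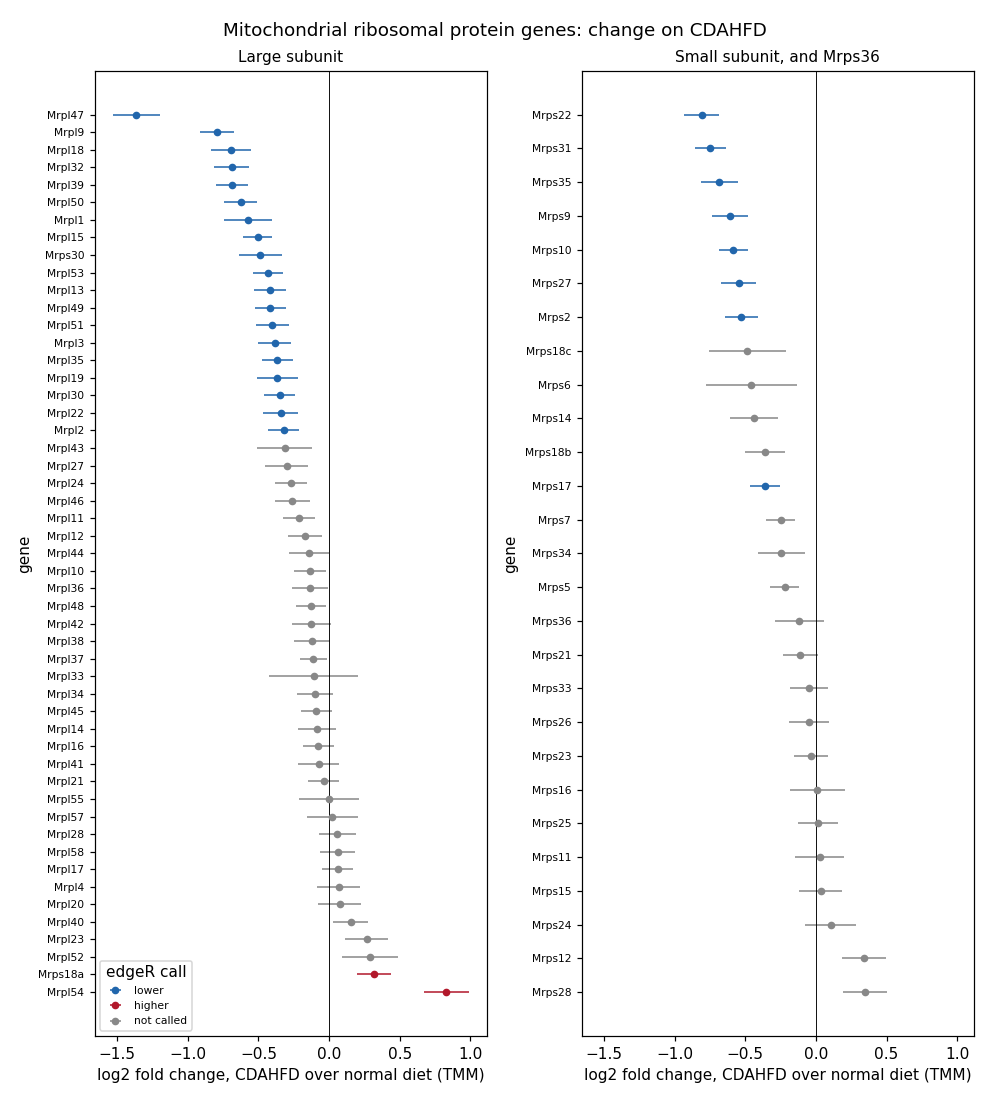
Log2 fold change of each of the 78 genes on CDAHFD over normal diet with TMM scaling (points) and its standard error (bars), large subunit on the left, small subunit and Mrps36 on the right, coloured by the edgeR call. With this scaling most genes lie at or left of 0, from Mrpl47 at -1.37 to Mrpl54 at 0.83, while with total counts the median of the genes was 0.13.

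This balance rests on the scaling of the libraries. Members took 0.197% to 0.22% of all counts on normal diet and 0.217% to 0.229% on CDAHFD. Their summed TPM, the authors' values per gene length, was 2582 to 2844 on normal diet and 3017 to 3260 on CDAHFD. The diets overlapped by share of counts, whereas by summed TPM each CDAHFD library was above each normal diet library. With total counts 12 members were called higher and 9 lower (44.0% and 8.07% of all genes), and with limma on log2(TPM + 1) 14 and 4 (40.4% and 5.73%). Scaled to the summed hepatocyte markers, 18 were higher and 3 lower (48.7% and 5.54%). With RLE, the scaling of DESeq2, 1 was higher and 31 lower (27.9% and 24.7%). The median of the members was 0.13 with total counts, 0.14 with TPM, 0.23 with the hepatocyte markers and -0.21 with RLE. A scaling moves all genes together: the median of all genes was 0.34 with total counts, 0.29 with TPM, 0.43 with the hepatocyte markers and -0.01 with RLE. The median member stayed 0.2 below the median of all genes under each of the count scalings and 0.15 below it with TPM. Across TMM, RLE, total counts, TPM, hepatocyte markers and respiratory chain genes, 6 scalings in all, Mrpl47 was called lower and Mrpl54 higher in each. No member was called lower under 1 of them and higher under another, and 28 were called under none. The counts under the other settings tried were as follows. Without a filter 3 members were higher and 27 lower (17.7% and 13.0% of all genes), and with a minimum of 1 CPM in 3 libraries 2 and 26 (28.7% and 23.8%). DESeq2 gave 1 and 29 (21.5% and 19.2%), limma-voom 2 and 26 (28.5% and 23.4%). On log2(TPM + 0.1) the counts were 14 and 4 (40.2% and 5.64%), and on log2(TPM + 1) without a filter 10 and 4 (23.6% and 2.73%). With 1 library left out at a time they were 1 to 5 and 25 to 29 (24.4% to 28.0% and 19.6% to 23.3%).

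**Figure D2:**
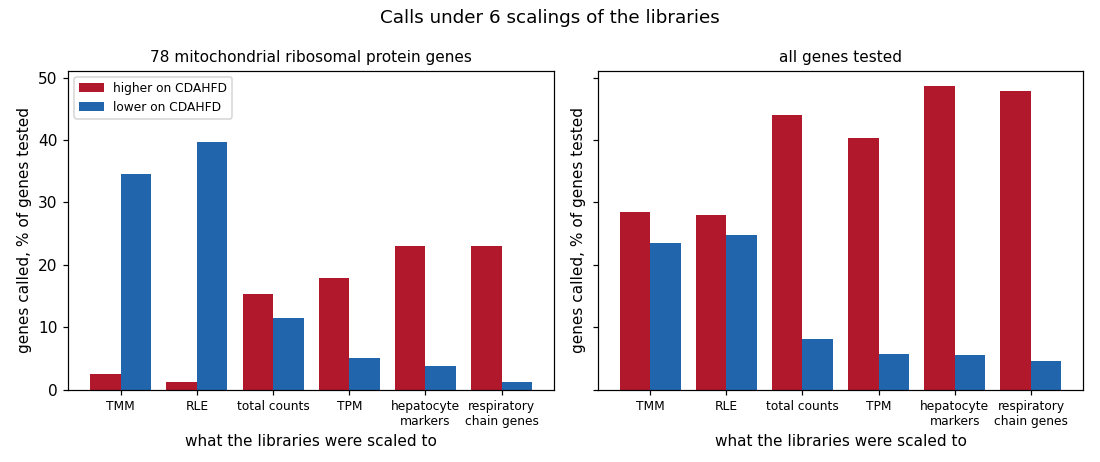
Share of genes called higher (red) and lower (blue) on CDAHFD, in percent of the genes tested, for the 78 members (left) and for all genes (right), under 6 scalings of the libraries on the horizontal axis. Lower calls prevail among the members with TMM and RLE, and higher calls with the other 4.

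Among large subunit genes, 19 of 51 fell and 2 rose with TMM (10 higher and 6 lower by total counts, 12 and 2 by hepatocyte markers). That is 37.3% lower and 3.92% higher with TMM, beside 23.5% and 28.5% of all genes, and the higher calls by total counts and hepatocyte markers stand beside 44.0% and 48.7% of all genes. Mrpl47 (ENSMUSG00000037531), whose product descends from a bacterial protein at the mouth of the exit tunnel, moved farthest. Its level was 12.6, 15.7 and 14.2 CPM in the normal diet libraries and 5.63, 6.4 and 4.44 CPM in the CDAHFD libraries. The groups were far apart, and the log2 change was -1.37 ± 0.17 (SE, n = 3 per diet, edgeR adjusted p = 4.69e-05), or 38.8% of the normal level. It was -0.85 on log2(TPM + 1), -0.96 with hepatocyte markers and -1.05 with total counts.

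Mrpl9 (ENSMUSG00000028140), another bacterial-type protein, was at 36, 30.5 and 30.3 CPM on normal diet and at 16.7, 19 and 20.1 CPM on CDAHFD. Without overlap between the diets it fell by 0.79 ± 0.12 on the log2 scale (edgeR adjusted p = 0.000249). Mrpl18, of the central protuberance where transfer RNAs are contacted, had 21.3, 20.5 and 16.8 CPM against 10.7, 13.8 and 11.8 CPM. Its change was -0.69 ± 0.14, with the diets again apart. In the GENCODE M21 models its exons overlap those of Tcp1 by up to 124 bases on the opposite strand. Tcp1 had 15084 reads over the 6 libraries and fell too (-0.58 ± 0.10), and the strand setting of the counting is not given. Mrpl32, whose precursor is cut by a protease of the inner membrane before it joins the ribosome, had 22.1, 27.8 and 25.5 CPM against 15.9, 16.3 and 14.7 CPM, a change of -0.69 ± 0.12. The mitochondria-specific Mrpl39 was at 43.7, 55.6 and 51.5 CPM on normal diet and at 32.1, 32.1 and 29.6 CPM on CDAHFD, a change of -0.69 ± 0.11. Both sets of CDAHFD values lay close together and below all normal diet values. Of these 4, Mrpl9 alone kept its call with TPM and hepatocyte markers (-0.41 and -0.37), whereas Mrpl18, Mrpl32 and Mrpl39 lost it under both, at adjusted p = 0.0812 to 0.162.

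The small subunit had 8 lower and 0 higher calls among 26 genes with TMM (2 higher and 3 lower by total counts, 6 and 1 by hepatocyte markers). The lower calls make 30.8%, near the 23.5% of all genes with TMM, and all genes were called higher in 44.0% by total counts and in 48.7% by hepatocyte markers. Mrps22 (ENSMUSG00000032459), a mitochondria-specific protein whose mutation causes mitochondrial disease in humans, was at 22.1, 22.3 and 23.8 CPM on normal diet and 14.3, 13.2 and 11.4 CPM on CDAHFD. The normal diet libraries were nearly equal and all above the CDAHFD libraries, and the gene fell by 0.81 ± 0.12 (edgeR adjusted p = 0.000257). Mrps31 was as even, at 35.8, 37.2 and 34.7 CPM against 19.2, 21.6 and 23.3 CPM, a change of -0.75 ± 0.11. Mrps35 had 34.4, 34.9 and 30.3 CPM against 17, 23 and 22.1 CPM and fell by 0.68 ± 0.13. The diets did not overlap for either gene. With TPM, Mrps22 and Mrps31 still passed as lower, at -0.41 and -0.37, and Mrps35 did not (-0.29, adjusted p = 0.118). With the hepatocyte markers Mrps22 passed (-0.39, adjusted p = 0.0421) and Mrps31 did not (-0.33, adjusted p = 0.0718). The other members of either subunit that fell with TMM lay between -0.63 (Mrpl50) and -0.32 (Mrpl2).

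**Figure D3:**
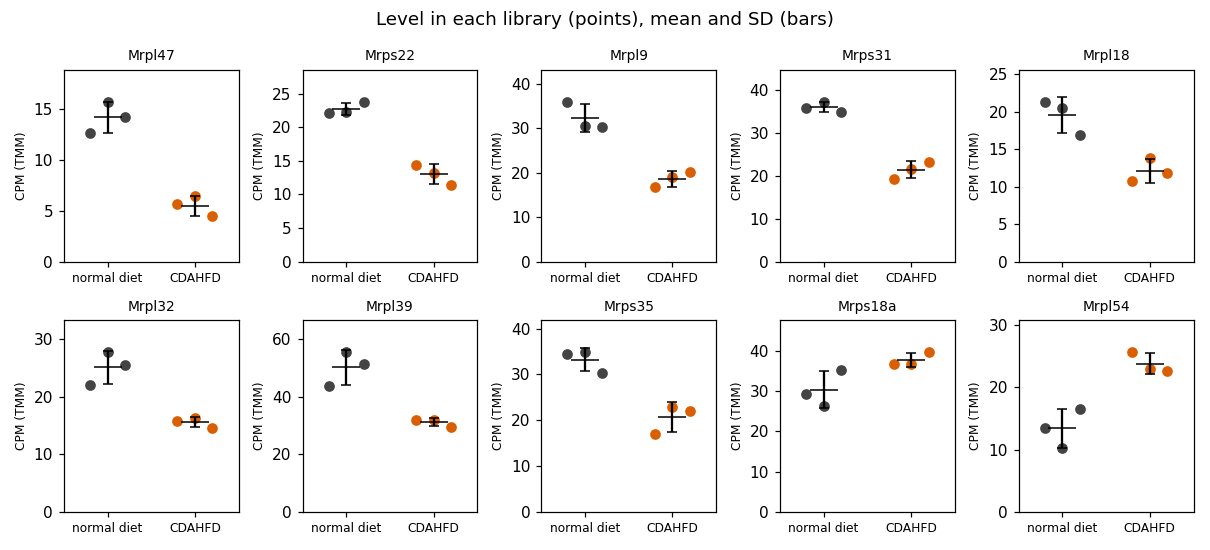
CPM after TMM scaling in each of the 6 libraries for the 8 members with the largest fall and the 2 that rose; points are libraries, horizontal bars means and vertical bars SD, and each axis starts at 0. In all 10 genes the CDAHFD points lie apart from the normal diet points, by the least margin in Mrps18a.

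Mrpl54 and Mrps18a, both of the large subunit and counted here as specific to mitochondria, were the members that rose. Mrpl54 (ENSMUSG00000034932) was at 13.5, 10.2 and 16.4 CPM on normal diet and at 25.7, 23 and 22.7 CPM on CDAHFD. Every CDAHFD library was higher, with a change of 0.83 ± 0.16 (edgeR adjusted p = 0.00122) that became 1.15 with total counts and 1.25 with hepatocyte markers. Mrps18a (ENSMUSG00000023967) had 29.3, 26.4 and 35.4 CPM against 36.8, 36.8 and 39.8 CPM. The gap between the diets was narrow, and the change of 0.32 ± 0.12 (edgeR adjusted p = 0.0479) no longer passed with RLE, with DESeq2, or without any single library except normal diet replicate 3, at adjusted p = 0.0606, 0.101 and 0.119 to 0.185. Without normal diet replicate 3 the number of higher members went from 2 to 5, by the addition of Mrpl52, Mrps12 and Mrps28 (28.0% of all genes higher).

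Mrps18a belongs to a family of 3 paralogs descended from the same bacterial protein, although it was counted above as specific to mitochondria. Mrps18c, the small subunit copy closest to bacteria, was scarce and scattered at 2.9, 4.36 and 2.2 CPM against 1.82, 2.5 and 2.42 CPM (-0.49 ± 0.27, edgeR adjusted p = 0.155). Mrps18b, which sits elsewhere in the small subunit, had 18.6, 16.6 and 22.6 CPM against 16.4, 13.3 and 15.2 CPM. Its diets did not overlap, but the change of -0.36 ± 0.14 missed the threshold (edgeR adjusted p = 0.0536) and passed with RLE at adjusted p = 0.0433. It was 0.06 with the hepatocyte markers. Mrps36 had 8.64, 8.08 and 11.8 CPM against 8.26, 9.76 and 8.3 CPM, with overlapping diets and a change of -0.12 ± 0.17.

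Scaling the libraries to the summed counts of the 78 members, chosen after seeing the data, asks which messages moved relative to the set as a whole. On that scale 12 members were lower and 7 higher (10.5% and 36.0% of all genes). The lower ones were all among the 27 called with TMM and included the 8 largest falls, from Mrpl47 at -1.16 to Mrpl39 and Mrps35 at -0.48. This overlap was largely set in advance, because a change of scaling moves all members up together, and it is no further support for the TMM calls. The 7 higher ones were Mrpl54 (1.05), Mrps12 (0.56), Mrps28 (0.56), Mrps18a (0.53), Mrpl52 (0.51), Mrpl23 (0.48) and Mrpl40 (0.36). The size of the change therefore differed between members. Calls in 2 directions say no more than that, since this scaling centres the members near 0 (median 0.02). Of the 7, only Mrps12, the protein of the decoding centre, Mrps18a and Mrpl54 had no overlap between diets on the TMM scale.

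Levels per transcript length, from the deposited TPM, spanned a wide range. Mrpl12, the stalk protein that recruits translation factors and has also been found to bind mitochondrial RNA polymerase, was the most abundant on both diets at 214 ± 17.6 TPM (SD, n = 3) on normal diet and 246 ± 25.3 on CDAHFD. Mrps21 followed on normal diet at 97 ± 9.73 TPM (116 ± 4.71 on CDAHFD), and Mrpl34 was the fourth at 88.4 ± 7.71 (107 ± 11.9 on CDAHFD). Mrps12 was the eighth on normal diet at 72.1 ± 14.5 TPM and the second on CDAHFD at 119 ± 8.04. On CDAHFD the ranges of mean ± SD of Mrps12, Mrps21 and Mrpl34 overlapped, while Mrpl12 stood clear of all others. The lowest by the mean over 6 libraries were Mrps30 (5.49 ± 0.486 and 5.04 ± 1.02 TPM), Mrps6 (3.87 ± 1.46 and 3.62 ± 1.08), Mrps25 (3.68 ± 0.559 and 4.78 ± 0.44) and Mrpl33 (0.641 ± 0.115 and 0.76 ± 0.283). Mrps6 and Mrps25 did not differ beyond their spread on either diet. In between, 63 of 78 members had 10 to 100 TPM on normal diet, with a median over all members of 25.4 TPM, and 27 TPM on CDAHFD. The order was close on both diets (Spearman correlation across the 78 genes 0.97, a description, since the genes share libraries and gene lengths). Mrpl54 moved up from rank 27 to 9 and Mrpl47 down from rank 70 to 76.

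**Figure D4:**
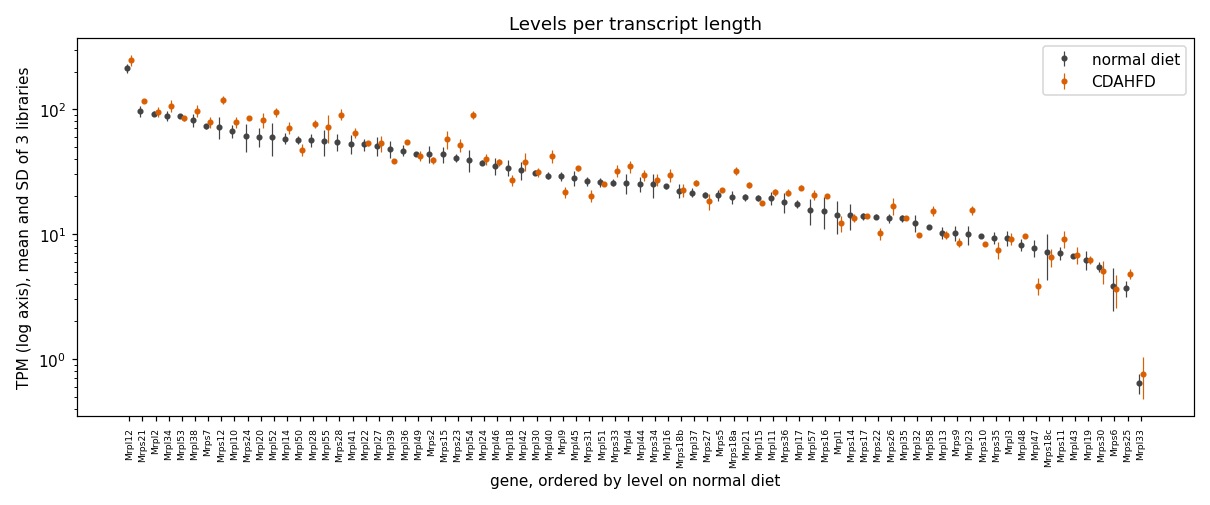
Mean TPM with SD over 3 libraries for each member on normal diet (grey) and CDAHFD (orange), on a log axis and ordered by the normal diet level. Mrpl12 is the highest on both diets, Mrpl33 the lowest, and the orange points follow the order of the grey ones.

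On the TMM scale none of the 4 most abundant members, by the mean over 6 libraries, passed. Mrpl12 had 136, 119 and 151 CPM on normal diet against 133, 114 and 115 CPM on CDAHFD, overlapping ranges with a change of -0.17 ± 0.12. Mrps21 (-0.11 ± 0.12) and Mrpl34 (-0.10 ± 0.13) overlapped as well. Mrps12 had 33.1, 22.9 and 37.4 CPM against 41.7, 37.9 and 38.9 CPM, with every CDAHFD library above every normal diet library. Its change of 0.34 ± 0.16 did not pass (edgeR adjusted p = 0.0876), but it did with total counts (0.67), TPM (0.73) and hepatocyte markers (0.77). Of the 4 scarcest, Mrps30 fell by 0.49 ± 0.15 from 15, 15.7 and 14.4 CPM to 8.59, 11 and 12.7 CPM, a call lost with total counts (-0.16, adjusted p = 0.406). Mrpl33 (-0.11 ± 0.31), Mrps6 (-0.46 ± 0.32) and Mrps25 (0.01 ± 0.14) did not pass. Mrpl33 was counted 25 to 64 times and Mrps6 30 to 69 times per library, so their changes are poorly resolved.

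Other genes of mitochondrial translation were lower or did not pass with TMM, and none was higher. Beside the counts below stand 23.5% of all genes lower with TMM, and 44.0% higher and 8.07% lower with total counts. Among 5 tested ribosomal proteins with other symbols, 2 fell (total counts 0 higher and 1 lower). Ptcd3, a small subunit protein, went from 39.1 to 24.1 CPM, a change of -0.70 ± 0.11, and Gadd45gip1 of the large subunit from 1.6 to 0.823 CPM, a change of -0.94 ± 0.32. Of 27 tested assembly factors 8 fell (total counts 7 higher and 3 lower), a share of 29.6% that is near that of all genes. These included Gtpbp10, a GTPase of large subunit maturation (-0.79 ± 0.13), the rRNA methyltransferase gene Mrm3 (-0.79 ± 0.19) and Ngrn, which binds the large rRNA (-0.79 ± 0.12).

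Of 14 tested translation factors and their mRNA-handling partners 9 fell (64.3%), with a median of -0.44 (total counts 2 higher and 2 lower). Mtif2, the initiation factor that places the first transfer RNA, fell by 0.92 ± 0.12, Lrpprc, which stabilises mitochondrial messages, by 0.84 ± 0.11 from 190 to 106 CPM, and the release factor gene Mtrf1l by 0.65 ± 0.18. Tufm, the abundant elongation factor, did not pass (-0.05 ± 0.10). Of 20 genes for charging mitochondrial transfer RNAs 8 fell, a share of 40.0% (total counts 3 higher and 1 lower), led by Nars2 (-0.84 ± 0.12), Hars2 (-0.57 ± 0.12) and Rars2 (-0.54 ± 0.15), the enzymes for asparagine, histidine and arginine. Of 10 tested genes that transcribe or copy mitochondrial DNA 7 fell, a share of 70.0% (total counts 0 higher and 3 lower). Tfam, which packages this DNA, fell by 0.84 ± 0.11, and the transcription factors Tfb2m and Tefm by 0.82 ± 0.16 and 0.75 ± 0.17. With the hepatocyte markers these falls were mostly lost. The translation factors then had 2 higher and 2 lower calls (median -0.02), the transfer RNA genes 4 and 1, and the mitochondrial DNA genes 0 and 2. Of all genes, 48.7% were higher and 5.54% lower with that scaling.

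The ribosome was set beside the genes its products are built together with and beside the ribosome of the cytosol. With TMM, 47 of 81 tested nuclear genes of the respiratory chain and ATP synthase fell and 2 rose, with a median of -0.42, and 6 of 77 cytosolic ribosomal protein genes fell and 1 rose, with a median of 0.02. The members lay between these groups, at 27 of 78 and -0.19. Of all genes, 23.5% fell and 28.5% rose with TMM. With total counts the medians were -0.09 for the respiratory chain, 0.13 for the members and 0.35 for the cytosolic ribosome. In the respiratory chain 14 genes were then lower and 3 higher, and in the cytosolic ribosome 0 and 35 (8.07% and 44.0% of all genes). With the hepatocyte markers the respiratory chain had 4 lower and 7 higher (5.54% and 48.7% of all genes), with a median of 0.01. When libraries were scaled to the summed counts of the respiratory chain genes, 18 members were higher and 1, Mrpl47, was lower (47.8% and 4.58% of all genes), with a median of 0.25. The 18 higher members included Mrpl54 (1.28), Mrps12 (0.80), Mrps28 (0.80) and Mrps18a (0.76). The share of members called higher was below that of all genes, so these values describe a difference from the respiratory chain and nothing particular to the ribosome.

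Members that fell had transcripts lower in GC content. The longest coding transcript (GENCODE M21 models) had a median of 47.1% GC in the 27 that fell, 52.2% in the 49 that did not pass, and 56.0% and 60.4% in Mrps18a and Mrpl54. Of 14 members at or under 45% GC 9 fell and 0 rose (median -0.42), whereas of 16 members over 55% GC 1 fell and 2 rose (median -0.03). Of all genes in the same ranges, 38.1% were lower and 19.5% higher at or under 45%, and 10.5% lower and 42.0% higher over 55%. Across the 78 members the Spearman correlation of change and GC content was 0.49, and that of change and transcript length -0.37. The same relation to GC ran through all genes more weakly (0.27 over 12956 genes), with medians of -0.23 at or under 45% and 0.27 over 55%. It was 0.28 in the respiratory chain and 0.33 in the cytosolic ribosome group. By Pearson correlation the GC values were 0.50 in the members, 0.17 in all genes, 0.15 in the respiratory chain and 0.31 in the cytosolic ribosome. For transcript length the Spearman correlation was -0.02 in all genes, -0.08 in the respiratory chain and -0.11 in the cytosolic ribosome. These are descriptions across genes that share the same 6 libraries. With a correction for GC content in each library, added after seeing the data, 28 members were lower and 1, Mrpl54 (0.50, adjusted p = 0.00581), higher (24.3% and 29.5% of all genes). Of the 27 lower calls 19 remained. Mrps18a moved to 0.12 (adjusted p = 0.297), and Mrpl12 and Mrpl34 then passed as lower, both at -0.37 (adjusted p = 0.0101 and 0.00786).

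**Figure D5:**
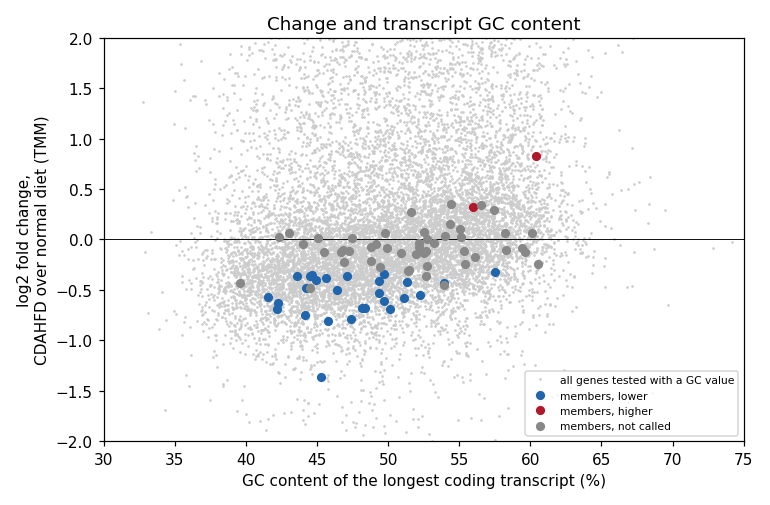
Log2 change on CDAHFD over normal diet (TMM, vertical axis, shown from -2 to 2) against the GC content of the longest coding transcript in percent, for all tested genes with a value (light grey) and for the members by their call. The members called lower (blue) gather at low GC content, with a median of 47.1%, and the 2 called higher (red) lie at 56.0% and 60.4%.

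Promoters were read because genes of the mitochondrial ribosome are known to be driven by general factors of housekeeping genes, among them NRF1 and the ETS-type factor GABP. RefSeq promoters (GRCm38.p6, 250 bases before to 50 after the start) were at hand for 69 members, 75 promoters in all. The ETS-type motif CCGGAAG was found on either strand in 34.7% of member promoters, in 16.2% of the promoters of all tested genes and in 8.9% of all promoters of that table. A long YY1-type motif stood in 6.7%, against 1.3% and 0.6%. The palindromic NRF1 motif stood in 4.0%, against 1.9% and 1.0%. The motif CCAAT was about as common in members (40.0%) as in tested genes (37.4%), as was the E-box CACGTG (9.3% against 9.5%), and the palindrome bound by ZBTB33 was in 1.3% against 0.9%. The motifs searched may overlap each other. Members with the ETS-type motif had a median change of -0.11 (26 genes) and those without it -0.22 (43 genes).

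The NRF1 motif occurred in 3 members, Mrpl9, Mrpl32 and Mrpl39, which are all among the 8 largest falls with TMM. Their stretches are shown 5′ to 3′ on the strand of the gene to let the shared letters be seen, with the motif in capitals and 20 bases on either side where the window before the start allows. They lie at chr3:94443288-94443335 (plus strand), chr13:14613095-14613144 (minus) and chr16:84735340-84735389 (minus) of GRCm38.p6.
Mrpl9: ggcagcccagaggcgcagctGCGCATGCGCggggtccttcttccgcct
Mrpl32: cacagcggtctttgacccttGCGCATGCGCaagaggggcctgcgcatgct
Mrpl39: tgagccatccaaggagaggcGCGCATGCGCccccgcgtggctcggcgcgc
The match begins 28, 87 and 125 bases before the start in this order. A match of letters is not a measured binding site, and 3 genes support no statement about the factor. The longer motifs searched beside it are given by 1 member each, in capitals, Mrps11 for the YY1 type (its reverse complement, chr7:78783001-78783051) and Mrpl57 for the ZBTB33 palindrome (chr14:57826182-57826231), both on the plus strand.
Mrps11: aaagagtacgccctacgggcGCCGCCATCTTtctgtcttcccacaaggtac
Mrpl57: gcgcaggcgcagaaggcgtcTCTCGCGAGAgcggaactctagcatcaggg

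For the ETS-type motif, Mrps22, which fell, and Mrps18a, which rose, are set side by side, since both hold it close to the start, 11 and 26 bases before it. They lie at chr9:98601680-98601710 (minus) and chr17:46110958-46111003 (plus), with the motif in capitals.
Mrps22: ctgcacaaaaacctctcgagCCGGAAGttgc
Mrps18a: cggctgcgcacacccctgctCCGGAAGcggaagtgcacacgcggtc

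Some of these genes start back to back with a neighbour, and how common this is among all genes was not counted. Within that set of promoters, 26 members had a gene on the opposite strand starting within 1000 bases upstream, and 24 of these neighbours were tested. Of the 24 neighbours 7 fell and 2 rose with TMM, beside 23.5% and 28.5% of all genes, so the number that fell is near the background. In 4 of the 9 pairs whose member fell, the neighbour fell too, and in 1 the neighbour rose. The Spearman correlation of the pairs' changes was 0.40, a description over 24 pairs that include Mrps11 and Mrpl46 in both orders. Mrpl47 starts 308 bases from Ndufb5, a subunit of respiratory complex I, which fell by 0.82 ± 0.17 from 43 to 24.3 CPM (a pair named after its values were seen). Exons of both genes overlap by up to 530 bases on opposite strands in the GENCODE M21 models. Mrpl47 also overlaps Actl6a, a gene of chromatin remodelling with 2595 reads over the 6 libraries, by up to 452 bases on the opposite strand. Such reads can be told apart only if the counting used strand, a setting the sources used here do not give. The 250 bases before the Mrpl47 start, which lie between the starts of the member that moved farthest and of this neighbour, hold none of the motifs searched. They are chr3:32736756-32737005 (minus strand, GRCm38.p6).
Mrpl47: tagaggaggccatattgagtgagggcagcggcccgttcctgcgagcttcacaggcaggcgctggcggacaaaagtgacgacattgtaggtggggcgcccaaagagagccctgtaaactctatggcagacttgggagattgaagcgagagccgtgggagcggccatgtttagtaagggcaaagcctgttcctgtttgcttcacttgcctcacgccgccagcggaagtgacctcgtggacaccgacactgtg

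Neighbours did not always follow the member. Ska3, a kinetochore gene, rose by 1.63 ± 0.61 (edgeR adjusted p = 0.0429) beside Mrpl57 (0.02 ± 0.18). Its level was near the floor, at 0.199 CPM on normal diet and 0.624 CPM on CDAHFD, so its change is poorly resolved. Ncapd2, a condensin gene, rose by 0.91 ± 0.17 beside Mrpl51, which fell by 0.40 ± 0.12. Sars2, the mitochondrial serine enzyme, fell by 0.43 ± 0.14 beside Mrps12 (0.34 ± 0.16). The pair with the smallest difference was Mrpl41 with Pnpla7, a lysophospholipase gene, at -0.07 ± 0.15 and -0.09 ± 0.11.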

How the data were processed

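The deposited table holds whole-number counts, not normalized, and the authors deposited TPM beside them, with the same sum in every library. Reads were aligned with STAR 2.7.11a to GRCm39, per the submitters' processing notes, while the sources used here name no counting tool, annotation, strand setting or gene lengths. Of 56847 Ensembl IDs 51911 matched a symbol. Columns were assigned by diet prefix and replicate number, and per-sample columns not used numbered 0. edgeR 4.0.16 in R 4.3.3 kept 14215 genes (filterByExpr, minimum count 10), scaled by TMM and fitted the diet by quasi-likelihood over all 6 libraries. The error is the coefficient over the root of F. The member-sum scaling and the GC adjustment were added after seeing the data. Other alternatives used DESeq2 1.42.0, limma 3.58.1, other scalings, filters, a replicate block and left-out libraries. The pipeline was also run on simulated counts of 14215 genes. It recovered 71 of 100 genes changed by 2-fold and 27 of 100 changed by 1.5-fold, with 12 false calls among 110. A member that did not pass may therefore still have changed. Far fewer genes were changed in the simulation than passed here, so its rates need not hold for these data. Libraries of a diet differed by 17.5 to 39.7 times their degrees of freedom in a chi-square test, so none repeated another. The precision of counts is set by 25 or more reads per member and library. The members and lists were chosen with earlier results of these data known. Members named are the 8 largest falls and up to 8 rises, the 4 highest and 4 lowest by TPM, Mrps18a, Mrps18b, Mrps18c, Mrpl12 and Mrps36. Up to 3 genes per partner list and 4 neighbour pairs were named by size of change, and other names were chosen after their values were seen. The reference tables are of GRCm38 and served for names, promoters and transcript properties. The strand of neighbours was taken from the promoter table.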

Additional observations from a re-analysis of the deposited data

How the results depend on the processing

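The counts of members called lower and higher, 27 and 2 with a median of -0.19, turned on the scaling. They became 9 and 12 with total counts (median 0.13), 3 and 18 with the hepatocyte markers (0.23), 1 and 18 with the respiratory chain genes (0.25), and 12 and 7 with the member sum (0.02). Of all genes, 23.5% were lower and 28.5% higher with TMM. Under the scalings just listed these shares were 8.07% and 44.0%, 5.54% and 48.7%, 4.58% and 47.8%, and 10.5% and 36.0%. On log2(TPM + 1) the members called were 4 and 14 (0.14), on log2(TPM + 0.1) 4 and 14 (0.16), and on log2(TPM + 1) without a filter 4 and 10 (0.14). The shares of all genes were then 5.73% and 40.4%, 5.64% and 40.2%, and 2.73% and 23.6%. The cause of the dependence on scaling was not tested. RLE, DESeq2 and the GC adjustment each left 1 higher member, Mrpl54, and 31, 29 and 28 lower ones. Of all genes 24.7%, 19.2% and 24.3% were lower there, and 27.9%, 21.5% and 29.5% higher. Without each library in turn, 25 to 29 members were lower and 1 to 5 higher, with a median of -0.28 to -0.2. Of all genes, 19.6% to 23.3% were then lower and 24.4% to 28.0% higher. Of the 27 lower calls 26 remained with limma-voom, with DESeq2 and with the 1 CPM filter, 25 without a filter, and 24 to 26 without any 1 library. Over the named members and alternatives, 42 values lost a call, 21 gained one and 357 kept their call or lack of one. Among the members picked by the naming rules no called value changed sign. In 7 of them 48 values without a call did (Mrpl12, Mrpl33, Mrpl34, Mrps18b, Mrps21, Mrps25 and Mrps36). Some other members called lower with TMM did change sign, without a call on the other side. Mrpl2 went from -0.32 to 0.11 with the hepatocyte markers, and Mrpl51 from -0.40 to 0.02. The lowest median was without CDAHFD replicate 2, and the 5 higher members were without normal diet replicate 3. Same-numbered libraries of the diets had correlations of -0.047, 0.069 and 0.12, so the numbers were not taken as pairs. With a replicate block 27 members were lower and 3 higher (Mrps12 was added), beside 23.3% and 28.5% of all genes, with a median of -0.19. Not every library correlated best with its own number. Depth limits Mrpl33, Mrps6 and Mrps18c, with 25 to 89 reads per library.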

Other observations

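According to GENCODE M21, exons of 33 of the 78 members overlap those of another gene, 25 of them on the opposite strand only and 8 on the same strand. The share of all genes with such an overlap was not counted. In 4 of these 8 the other gene is protein coding. Mrpl53, which fell with TMM (-0.43 ± 0.11), shares up to 418 bases with Gm42688, whose reads were not analysed here. Mrps34 shares up to 289 bases with Nme3, which is listed at 0 reads in the 6 libraries, Mrps24 226 bases with Urgcp (4071 reads) and Mrps6 159 bases with Slc5a3 (586 reads) and 165 bases with Gm49711 (1 read). Mrpl33, the scarcest member, shares 107 bases with the non-coding Gm43809, also at 0 reads. How such reads were assigned is not given in the sources used here, and the values of these members are uncertain.

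The ratio of CPM to TPM, which follows the gene length behind the TPM, ran from 0.251 in Mrpl34 to 3.56 in Mrps35 on normal diet, around a median of 0.987. The order of the members by TPM therefore leans on lengths that are not given here.

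The 5 pseudogene rows left out of the set were almost silent. Mrpl23-ps1 had 29 reads over the 6 libraries, Mrpl48-ps 13, Mrps36-ps2 7, Mrps36-ps1 1 and Mrps36-ps3 0.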
